A study of Mus musculus with 8 samples.

Results

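A set of 10 genes of the WNT/beta-catenin pathway was followed in spermatogonia of mice with a loxP-flanked or a normal Tert allele. They were chosen by symbol, as the effector Ctnnb1, the DNA-binding factors Tcf7, Tcf7l1, Tcf7l2 and Lef1, the destruction complex genes Axin1, Axin2, Apc and Gsk3b, and the inhibitor Shisa6, and all 10 had a row among the 14853 genes of the authors' comparison. RNA came from undifferentiated spermatogonia of C57BL/6 mice aged 8 to 12 weeks, collected on day 7 after tamoxifen by sorting cells with high MCAM, no KIT and tdTomato fluorescence. The mice carried at Tert, the gene of the telomerase reverse transcriptase, CreER on one allele, and on the other allele either loxP sites (CreER/flox, 4 samples) or the normal sequence (CreER/+, 4 samples). Both genotypes shared the CreER allele, the tamoxifen and 1 copy of a Cre-dependent tdTomato reporter at Rosa, so no group was wild type. The sample titles call the CreER/+ samples hetero and the CreER/flox samples del. CreER is a tamoxifen-activated recombinase, here encoded at the Tert locus, so the cells that recombine are those in which that locus is active. The labels do not say whether the 4 samples of a genotype came from separate animals, so the p-values measure the spread between these samples, which may be technical.

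In canonical WNT signalling, a destruction complex built on AXIN and APC holds beta-catenin while the kinases CK1 and GSK3 mark it for degradation. A WNT ligand bound to Frizzled and LRP receptors stops this, and beta-catenin enters the nucleus, where it turns TCF/LEF factors into activators of genes such as Axin2. In the mouse testis, WNT/beta-catenin signalling acts on undifferentiated spermatogonia, and SHISA6 has been described there as an inhibitor carried by a subset of the stem cells. TERT has been reported as a partner of beta-catenin in transcription in mouse intestine and embryonic stem cells, which other mouse work did not find. The comparison asks whether transcripts of this pathway differ between CreER/flox and CreER/+ cells.

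RefSeq (GRCm38.p6) lists more than 1 transcription start for several of these genes, and a count per gene adds up the transcripts from all of them. Windows of 250 bases upstream of a start were searched for the TCF/LEF site, spelled CTTTGNN with A or T at each N, on either strand. The search covered 7 of the 10 genes, with 13 windows in all, and 2 of these windows held a match, against 14.8% of 32851 windows over all genes. No window of Apc, Axin1 or Shisa6 was among the 13, so these genes were not tested for a match. Both matches lay at the innermost starts of Lef1 and Tcf7l2, and the other windows of these genes held none. The windows are shown to compare the starts that 1 count per gene cannot separate, with the match in capitals.
Lef1 outer start, chr3:131110047-131110296, plus strand: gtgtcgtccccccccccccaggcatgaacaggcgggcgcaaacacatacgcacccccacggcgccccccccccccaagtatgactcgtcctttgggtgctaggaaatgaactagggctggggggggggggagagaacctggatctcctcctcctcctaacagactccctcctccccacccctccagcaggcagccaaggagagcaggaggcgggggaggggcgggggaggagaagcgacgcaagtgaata
Lef1 inner start, chr3:131156044-131156293, plus strand: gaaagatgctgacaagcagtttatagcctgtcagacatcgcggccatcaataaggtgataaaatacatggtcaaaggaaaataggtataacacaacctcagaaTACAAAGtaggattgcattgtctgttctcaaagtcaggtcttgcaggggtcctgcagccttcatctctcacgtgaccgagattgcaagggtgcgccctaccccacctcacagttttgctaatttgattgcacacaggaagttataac
Tcf7l2 outer start, chr19:55741560-55741809, plus strand: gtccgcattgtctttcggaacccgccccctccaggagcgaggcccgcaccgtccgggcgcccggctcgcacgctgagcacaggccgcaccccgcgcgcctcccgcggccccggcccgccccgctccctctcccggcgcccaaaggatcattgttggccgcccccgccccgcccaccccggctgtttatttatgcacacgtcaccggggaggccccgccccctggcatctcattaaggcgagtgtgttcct
Tcf7l2 inner start, chr19:55895071-55895320, plus strand: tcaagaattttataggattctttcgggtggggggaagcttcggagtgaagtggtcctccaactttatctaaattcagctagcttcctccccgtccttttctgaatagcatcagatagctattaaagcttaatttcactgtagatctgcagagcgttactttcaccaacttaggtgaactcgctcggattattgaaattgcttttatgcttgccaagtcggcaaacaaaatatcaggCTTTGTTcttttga
The match upstream of the inner Lef1 start reads TACAAAG, which is CTTTGTA on the other strand, and begins 147 bases before it. CTTTGTT begins 14 bases before the inner Tcf7l2 start. The outer windows are richer in G and C, with 66.4% for Lef1 and 72.8% for Tcf7l2, than the inner ones, with 44.8% and 40.8%. A match is a run of letters and was not tested as a binding site.

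None of the 10 genes differed between CreER/flox and CreER/+ at an adjusted p of 0.05 by the authors' deposited table, where 5.36% of all genes did, 1.94% higher and 3.42% lower. At an unadjusted p under 0.05 there were 2 of the 10, Apc and Lef1, both lower, against 19.7% of all genes in the authors' deposited DESeq2 test. Of the 10 genes, 7 had a log2 fold change below 0 and 3 above it, and 49.9% of all genes lay below 0. Their median log2 fold change was -0.036, against 0.00071 for all genes. The SEs of the 10 genes ran between 0.94 and 1.16 times the median SE of genes of like mean count. Values per genotype and per library were not analysed here, so each gene is described by its mean normalized count over all libraries and by its log2 fold change.

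**Figure D1:**
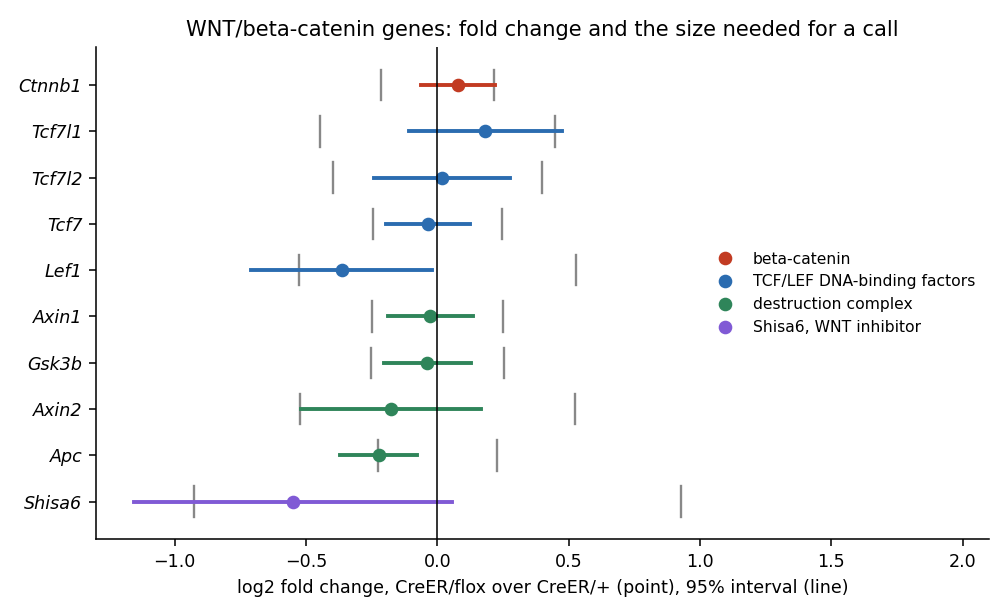
The log2 fold change of CreER/flox over CreER/+ is plotted for each gene as a point with its 95% interval as a line, coloured by role, and grey ticks mark the size that its SE would have needed for a call. No point lies beyond its ticks, Apc stops just short of its lower tick, and the intervals of Apc and Lef1 lie wholly below 0.

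Beta-catenin, the effector that WNT signals stabilize, is encoded by Ctnnb1 (Entrez 12387, chromosome 9, 120929216 to 120960507 in GRCm38). It had the highest mean normalized count of the 10 genes, 3483, and lay above or level with 97.8% of all genes of the authors' deposited table. Its log2 fold change was 0.078 (adjusted p = 0.596, SE 0.071) by the authors' deposited table. The 95% interval on the fold scale ran from 0.959 to 1.16, so larger changes of the transcript in either direction lie outside it. A log2 fold change of 0.21, or 1.16-fold, would have passed at this SE. Beta-catenin is controlled mainly through the stability of the protein, which RNA sequencing does not measure. Exons of Ulk4, on the opposite strand, share 759 bases (14.6%) with those of Ctnnb1, and Ulk4 was lower by the authors' deposited table (-0.47, SE 0.16, adjusted p 0.0484). How the counting treated strand is not given here, so reads from the shared bases could belong to either gene.

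The 4 TCF/LEF genes encode the HMG-box proteins that carry beta-catenin to DNA. Tcf7 (TCF1, chromosome 11, 52252371 to 52283014) had the largest mean normalized count of them, 1289, by the authors' deposited table. Tcf7l1 (TCF3, chromosome 6, 72626378 to 72789254), known mainly as a repressor, stood at 307, Tcf7l2 (TCF4, chromosome 19, 55741820 to 55933654) at 274 and Lef1 (chromosome 3, 131110471 to 131224356) at 151, all as mean normalized counts. Divided by the length of the longest transcript, Tcf7 had 522 counts per kb and lay above or level with 92.3% of protein-coding genes, Tcf7l1 had 101, Tcf7l2 73.9 and Lef1 43.4 counts per kb. The median protein-coding gene had 72.9 counts per kb, so Tcf7 was well above it, Tcf7l2 close to it and Lef1 below it.

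Lef1, itself a WNT target in many tissues, had the lowest value of the 4 factors, with a log2 fold change of -0.36 (adjusted p = 0.217, SE 0.18) by the authors' deposited table. That is 0.777-fold, with a 95% interval of 0.612 to 0.986, and its unadjusted p was 0.0377 by the authors' deposited table. A log2 fold change of 0.53 in size would have been needed for a call, and 17.4% of all genes had a Wald statistic of larger size. The antisense gene Gm43352 shares 1208 exon bases (13.7%) with Lef1 on the opposite strand, and it was not analysed here. Tcf7l1 had the highest log2 fold change of the 10 genes, 0.18 (adjusted p = 0.539, SE 0.15) by the authors' deposited table, with a fold interval of 0.928 to 1.39. The log2 fold changes of Tcf7 and Tcf7l2 were -0.034 (adjusted p = 0.876, SE 0.082) and 0.017 (adjusted p = 0.967, SE 0.13) by the authors' deposited table. The interval of Tcf7 was the narrower of these, 0.874 to 1.09-fold, against 0.846 to 1.21-fold for Tcf7l2. No factor was called, 2 lay below 0 and 2 above it, and the data are read per gene, so a shift between long and short forms of Lef1 or Tcf7l2 would not show.

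**Figure D2:**
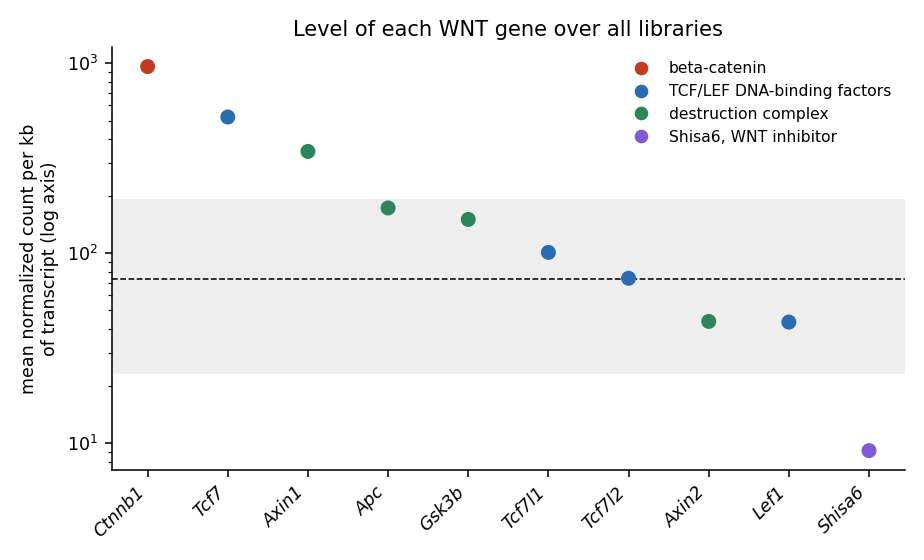
Points give the mean normalized count over all libraries per kb of the longest transcript (log axis), ordered from high to low and coloured by role. The dashed line is the median of protein-coding genes (72.9 counts per kb) and the band their interquartile range (23.3 to 191). Ctnnb1, Tcf7 and Axin1 lie above the band and Shisa6 lies below it.

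All 4 destruction complex genes had a log2 fold change below 0, between -0.22 and -0.027. Apc, whose large protein is a scaffold of the complex, came closest to the threshold of the 10 genes. Apc (chromosome 18, 34220924 to 34322552) had a mean normalized count of 2219 and a log2 fold change of -0.22 (adjusted p = 0.0525, SE 0.075) by the authors' deposited table. On the fold scale this was 0.857, or 14.3% lower, with a 95% interval of 0.774 to 0.949. The smallest change that would have passed at its SE was 0.23 on the log2 scale, and 5.59% of all genes had a larger Wald statistic in size. Apc is thus a value at the edge of the threshold, and whether it is called depends on the setting. It was called when p was adjusted over genes whose mean count reached 100 (adjusted p = 0.0476) or 50 (0.0463) and when a trend with mean count was removed (0.0150). It was not called with a t distribution of 6 degrees of freedom (adjusted p 0.439), with the null SD estimated from the Wald statistics (0.722), with fold changes centred on their median (0.0517) or after removal of the trend in length, GC and mean count (0.268).

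Axin2 (chromosome 11, 108920349 to 108950783), another scaffold of the complex and a widely used readout of WNT signalling because beta-catenin switches it on, had a log2 fold change of -0.18 (adjusted p = 0.637, SE 0.17) by the authors' deposited table. Its mean normalized count was 187 and its fold interval 0.697 to 1.12, so a change of 1.44-fold would have been needed for a call. Axin1 (chromosome 17, 26138688 to 26195811), the constant scaffold, was measured more tightly, at -0.027 (adjusted p = 0.909, SE 0.083) with a mean count of 1298 by the authors' deposited table. Gsk3b (chromosome 16, 38089001 to 38246084), the kinase that phosphorylates beta-catenin, stood at -0.038 (adjusted p = 0.863, SE 0.084) with a mean count of 1252 by the authors' deposited table. The fold intervals of Axin1 and Gsk3b were 0.877 to 1.10 and 0.869 to 1.09. Per kb of transcript, Axin1 had 344 counts, Apc 173, Gsk3b 151 and Axin2 43.8, so the feedback gene was the least abundant of the 4.

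Shisa6 (chromosome 11, 66211725 to 66525964), the WNT inhibitor of spermatogonial stem cells, had the largest fold change of the 10 genes in size and the widest error. Its log2 fold change was -0.55 (adjusted p = 0.313, SE 0.31) by the authors' deposited table, or 0.683-fold. The 95% interval ran from 0.449 to 1.04-fold. The gene's mean normalized count was 66.3, the lowest of the 10, and with 9.14 counts per kb it lay at or above 11.1% of protein-coding genes. Ctnnb1 had 105 times as many counts per kb. At this SE, a 1.90-fold change would have been needed for a call, so a smaller change of Shisa6 would not have been called. Of the other Shisa genes, 3 of 7 were measured and none was called. Shisa2 stood at 0.25 (adjusted p = 0.263, SE 0.13) and Shisa3 at -0.40 (adjusted p = 0.581, SE 0.35) by the authors' deposited table.

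**Figure D3:**
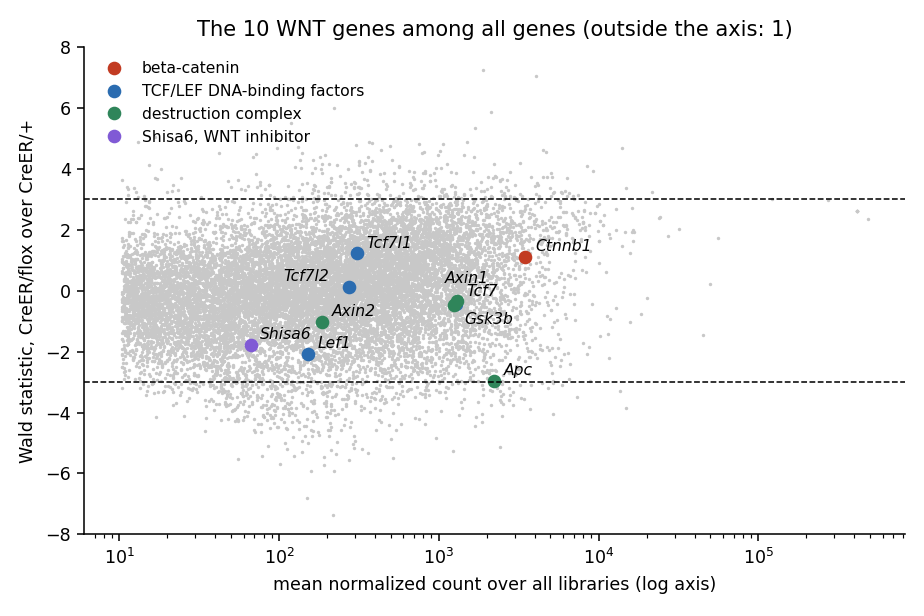
Each grey point is 1 gene of the comparison, with its mean normalized count over all libraries (log axis) against the Wald statistic of CreER/flox over CreER/+, and the 10 WNT genes are coloured by role. Dashed lines mark the smallest statistic that was called, 3.00 in size. The 10 genes lie between these lines, with Apc (-2.97) just inside the lower one. Lef1 (-2.08) and Shisa6 (-1.78) come after Apc and lie well inside the lines.

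The rest of the pathway was read from lists of 148 genes by role, of which 111 were measured and 37 were not analysed here. In the authors' deposited table, 2 of the 111 were called, both lower, where 5.36% of all genes were called. An unadjusted p under 0.05 was found for 16 of the 111, 8 higher and 8 lower. That is 14.4%, set beside 19.7% of all genes. The median log2 fold change of the 111 genes was -0.0089. The called genes were Csnk1e and Crebbp.

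Among WNT ligands, 5 of 19 were measured, with mean counts of 17.1 to 115, and none was called. The ligands of smallest p were Wnt9a (-0.73, SE 0.44, adjusted p 0.364) and Wnt4 (-0.48, SE 0.39, adjusted p 0.542) by the authors' deposited table. Wls and Porcn, which WNT-producing cells need to export ligands, had mean counts of only 10.6 and 10.8 and log2 fold changes of 0.98 (SE 0.59) and 0.25 (SE 0.57) by the authors' deposited table. These genes sit at the low end of the table, where every mean count was above 10.

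Of the receptors, 9 of 12 were measured, with mean counts up to 1505 for the co-receptor gene Lrp6, and none was called. The Frizzled genes Fzd10 (0.37, SE 0.15, adjusted p 0.135) and Fzd7 (0.41, SE 0.18, adjusted p 0.153) had the smallest p by the authors' deposited table, and the list had a median of 0.11. In the R-spondin module, which protects Frizzled receptors from removal, 7 of 9 genes were measured with a median of -0.22 and none called. Rspo4, a ligand of this module, stood at -0.29 (adjusted p = 0.202, SE 0.13) and Znrf3, the ubiquitin ligase that removes Frizzled, at -0.22 (adjusted p = 0.288, SE 0.12) by the authors' deposited table. Of the secreted and surface inhibitors, 7 of 16 were measured with a median of -0.029 and none called, and Dkk4 (0.38, SE 0.30) and Kremen1 (-0.16, SE 0.14) had the smallest p by the authors' deposited table.

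Inside the cell, all 12 genes of Dishevelled and its regulators were measured, 8 below 0 and 4 above it, and none was called. Ccdc88c, which encodes a Dishevelled-binding protein, stood at -0.19 (adjusted p = 0.159, SE 0.083) and Frat1, a GSK3-binding protein gene, at -0.52 (adjusted p = 0.237, SE 0.26) by the authors' deposited table. Of the 16 partners of the destruction complex, Csnk1e was called. It encodes casein kinase 1 epsilon, which acts on Dishevelled and LRP receptors, and it fell by 0.30 on the log2 scale (adjusted p = 0.0249, SE 0.09, mean count 539) by the authors' deposited table. The list median was 0.053 and 10 of the 16 genes lay above 0. Its other genes with an unadjusted p under 0.05 were all above 0, 4 in number.

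All 21 nuclear cofactors were measured, 16 of them below 0, with a median of -0.068. Crebbp, the histone acetyltransferase CBP that beta-catenin recruits, was the called one at -0.20 (adjusted p = 0.0421, SE 0.064, mean count 5950) by the authors' deposited table. Its paralogue Ep300 stood at -0.068 (adjusted p = 0.696, SE 0.077), and the chromatin remodeller gene Smarca4 at -0.15 (adjusted p = 0.140, SE 0.064) by the authors' deposited table. Both called genes, Csnk1e and Crebbp, lost the call with a threshold of 0.01, with the t distribution, with the estimated null SD and after removal of the trend in length, GC and mean count, where 0 of the list genes were called.

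The list of WNT target genes without Axin2, Lef1 and Tcf7 had 14 of 21 measured, 8 above 0 and 6 below, a median of 0.024 and none with an unadjusted p under 0.05. Znrf3 is also among them, and Tiam1 followed with -0.18 (adjusted p = 0.335, SE 0.10) by the authors' deposited table. Among the targets, the cyclin gene Ccnd1 had a log2 fold change of 0.018 (adjusted p = 0.964, SE 0.13) and the Dishevelled antagonist gene Nkd1 one of 0.030 (adjusted p = 0.954, SE 0.18) by the authors' deposited table. The stem cell marker Lgr5 and the transcription factor gene Sp5 had mean counts of only 37.4 and 24.7, and wide errors on their log2 fold changes of 0.076 (SE 0.37) and 0.42 (SE 0.50) by the authors' deposited table.

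**Figure D4:**
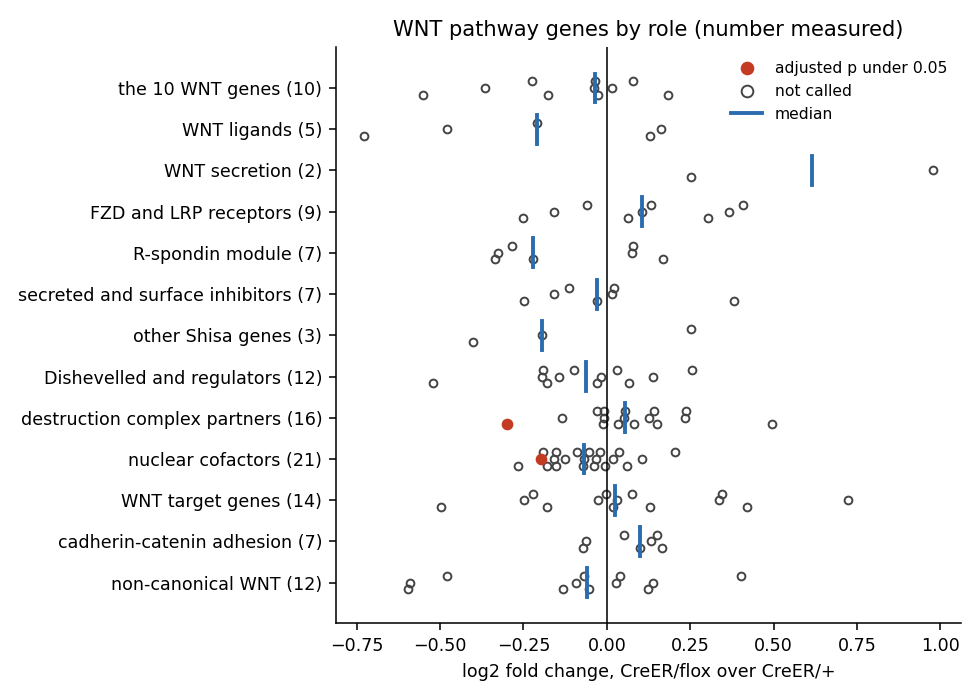
Every measured gene of the WNT lists is shown as a circle at its log2 fold change of CreER/flox over CreER/+, by role, with the number measured in brackets and the list median as a blue line. Filled red circles are genes called at an adjusted p of 0.05, which are Csnk1e and Crebbp, both below 0.

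Marker genes were read beside the sort, and Tert beside the genotypes. The undifferentiated markers Zbtb16, Mcam, Ret and Gfra1 had mean counts of 5143, 4854, 2926 and 2586. All 14 genes of that list were measured, none called, with a median log2 fold change of -0.074, and their mean counts went down to 30.0 for Pax7. Of the 14, 10 lay below 0 and 4 above it. Ret (-0.23, SE 0.084, adjusted p 0.0798) and Zbtb16 (-0.18, SE 0.067, adjusted p 0.0875) had the smallest p by the authors' deposited table. Mean counts of the differentiating markers ran from 19.9 to 3580, of the spermatocyte markers from 41.6 to 2779 and of the spermatid markers from 21.8 to 2304. Per kb of transcript, the spermatid markers ran from 19.8 counts for Acrv1 to 4404 for Tnp1. By that measure Tnp1 and Prm1 (2687) stood above Mcam (1624) and Zbtb16 (1006). The purity of the sort was not tested. Kit, absent by the sort at the cell surface, had a mean count of 93.1 and stood at -0.29 (adjusted p = 0.474, SE 0.21) by the authors' deposited table. Tert stood at 0.29 (adjusted p = 0.595, SE 0.26) by the authors' deposited table, and since the sources used here do not give the floxed part, that value is no check of the genotypes or of the sign, which was taken from the name of the table. Of the spermatid markers, all 9 were measured and below 0 (list median -1.14, log2 scale), and 4 were called lower, Odf1, Spem1, Tssk1 and Odf2. The SEs of the 9 ran from 1.12 (Acrv1) to 5.39 (Prm2) times the median SE of genes of like mean count. Of the spermatocyte markers, 2 of 7 were called, both lower, and of markers of somatic testis cells Trf of Sertoli cells was called higher and Actg2 of myoid cells lower. Trf was the only one called of the 7 Sertoli markers measured, and the list was split, 4 above 0 and 3 under it. The list median was 0.061 on the log2 scale. The mean count of Trf was 316, against 10.9 to 33.6 for the other Sertoli markers. Of macrophage and Leydig markers, 1 of 5 and 1 of 6 were measured. Whether these cells have a part in the values of Apc, Lef1, Shisa6, Csnk1e or Crebbp was not tested, and in bulk RNA fewer cells of a type and less RNA per cell cannot be told apart.

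**Figure D5:**
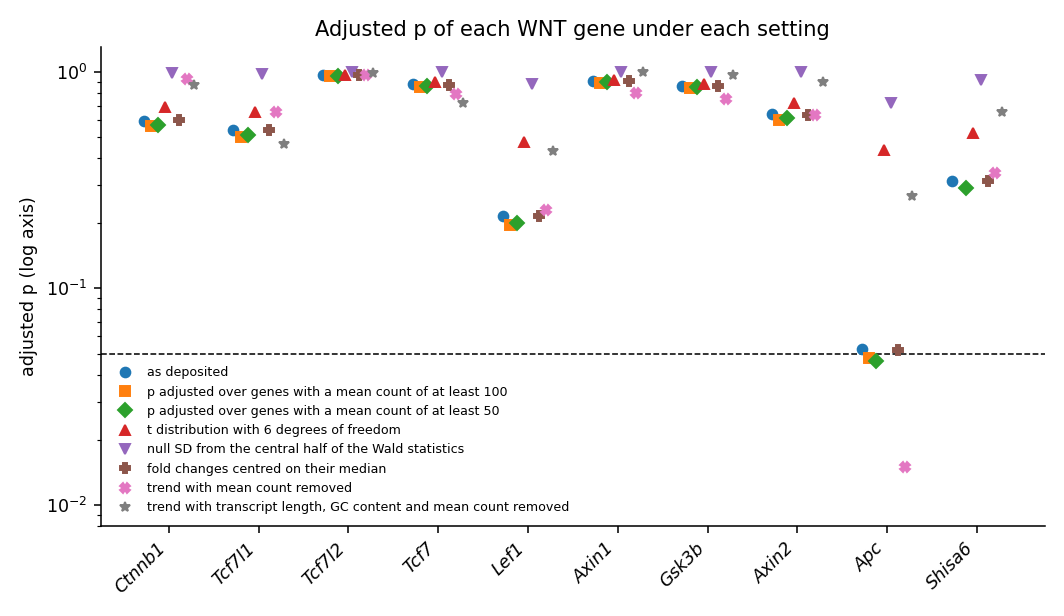
For each of the 10 genes, symbols give the adjusted p (log axis) as deposited and under 7 other settings, with the threshold of 0.05 as a dashed line. Only Apc has symbols below the line, at 0.0476, 0.0463 and 0.0150, and its other symbols lie above it.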

How the data were processed

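Total RNA of 4 CreER/flox and 4 CreER/+ samples was made into stranded low-input libraries, per the labels' protocols. Per the submitters' processing notes, the builds were mm10 and GRCm38 and the tools DESeq2, Bowtie, Bowtie2 (2.0.0-6), TopHat2 (2.0.4) and Trim Galore. The sources used here give neither the counting program nor its strand setting and annotation.

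One table of the authors' comparison was used. Its mean count is a signal deposited by the authors, counts divided by size factors and averaged over all libraries. The deposited log2 fold changes and their SEs were fitted by the authors, and the score deposited with them, the Wald statistic, was fold change over SE to within 2.58e-07. The p-values deposited by the authors are unadjusted and Benjamini-Hochberg adjusted, and the adjusted ones were matched to within 0.426%. The direction was read from the name of the table, which gives flox against WT. WT was taken to mean the CreER/+ samples, and neither reading could be checked here. Raw depth per library was not used here. Precision is given by the SE, whose median was 0.17 over all rows.

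A gene was called at an adjusted p under 0.05 over all 14853 genes. Intervals of 95% are the fold change plus or minus the normal quantile times the SE. They use the SEs as deposited and were not widened by the null SD of 1.45 given below, so they may be too narrow. The change needed for a call is the SE times 3.00, the smallest Wald statistic called. RefSeq names were matched for 14828 rows. Lengths, positions and exon overlaps came from GENCODE M21 (GRCm38), with the longest protein-coding transcript as length. The alternatives were other thresholds, adjustment over genes whose mean count reached 100 or 50, t-distributed statistics (6 degrees of freedom), a null SD of 1.45 from the quartiles of the Wald statistics, centring, and removal of trends, by a running median of 201 genes and by a quadratic fit to 13705 protein-coding genes. Steps were tested on fold changes simulated with the deposited SEs as their spread. The null SD of the data was wider, 1.45, so the simulation is no test of the calls. The 10 genes, the lists and the tests were chosen with earlier results of these data known. Named were the 10 genes, Tert, Kit and Mcam, and from each list up to 4 called genes or up to 2 of smallest p; other genes were named for their role or overlap, after values were seen. The software was matplotlib 3.10.9, scipy 1.17.1, numpy 2.4.6 and pandas 2.3.3 under Python 3.11.15.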

Additional observations from a re-analysis of the deposited data

How the results depend on the processing

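The 10 genes and the lists were recomputed under 9 alternatives. Of 89 values of single genes, 84 kept their direction and their side of the threshold. Apc was called at a threshold of 0.1 (adjusted p 0.0525), when p was adjusted over genes whose mean count reached 100 (0.0476) or 50 (0.0463), and with the trend with mean count removed (0.0150), so that 1 member was called in each of these cases (of 9 tested with the minimum of 100, which leaves out Shisa6, and of 10 otherwise). The log2 fold change of Tcf7l2 changed sign with the mean count trend removed (-0.018, adjusted p 0.974). Of the list genes, 2 were called as deposited, 4 at a threshold of 0.1, 3 (1 higher and 2 lower) with either minimum of mean count, of 72 tested at 100 and 87 at 50, 4 with the mean count trend removed, and 0 at a threshold of 0.01, with the t distribution, with the estimated null SD and after removal of the trend in length, GC and mean count. Over all genes these counts were 796 as deposited, 1340 at 0.1, 264 at 0.01, 609 of 9407 with a mean count of at least 100, 762 of 11324 with at least 50, 760 with the mean count trend removed, 0 with the t distribution, 5 with the estimated null SD and 391 of 13705 after removal of the trend in length, GC and mean count. The cause of these shifts was not tested. No paired analysis was possible because values per library were not used here, and for the same reason leaving out replicates and the edgeR fit were not run. Shisa6 had the lowest mean count of the 10 genes, 66.3, and the highest SE, 0.31.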

Other observations

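Genes of cell adhesion that share beta-catenin with the WNT pathway were also measured, 7 of 7, and none was called. Ctnnd1, which encodes p120 catenin, stood at 0.17 (adjusted p = 0.219, SE 0.08) and Ctnna1, which encodes alpha catenin and links beta-catenin to actin, at 0.099 (adjusted p = 0.622, SE 0.095) by the authors' deposited table. The E-cadherin gene Cdh1, a surface protein of undifferentiated spermatogonia, had a log2 fold change of -0.072 (adjusted p = 0.850, SE 0.15) by the authors' deposited table. Of the genes of WNT signalling that bypasses beta-catenin, 12 of 13 were measured and none was called, with a median of -0.060. Daam2, which encodes a formin bound by Dishevelled, stood at -0.60 (adjusted p = 0.136, SE 0.25) and the WNT receptor gene Ryk at 0.12 (adjusted p = 0.433, SE 0.084) by the authors' deposited table.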
